A study of Homo sapiens with 10 samples.

Results

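The genes described here are the 32 that carry glucose into the cell, run glycolysis step by step, make and export lactate, and set how much pyruvate reaches the mitochondria. They were taken by symbol from the first column of the deposited expression table. All 32 were found among its 20379 genes, and all 32 passed the filter on low values (a mean of at least 1 FPKM over the libraries, met by 12352 genes). They are the glucose carriers SLC2A1 and SLC2A3, the hexokinases HK1 and HK2, GPI, the phosphofructokinase-1 genes PFKL, PFKM and PFKP, and the PFKFB genes PFKFB2, PFKFB3 and PFKFB4. They go on with ALDOA, ALDOC, TPI1, GAPDH, PGK1, PGAM1, BPGM, ENO1, ENO2, ENO3, PKM, LDHA and LDHB. The monocarboxylate carriers SLC16A1 and SLC16A3, the pyruvate dehydrogenase kinases PDK1, PDK2, PDK3 and PDK4, and the phosphoglucomutases PGM1 and PGM2 complete the list.

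Poly(A) RNA was sequenced from DBTRG-05MG and from U87, both established human glioblastoma cell lines, after 0, 6, 12, 24 and 48 h in dibutyryl cAMP. This compound enters cells and stands in for cyclic AMP, the activator of protein kinase A, and the series title names a glycolytic phenotype and IL-6 among its subjects. The labels give 1 mM for every library, the 0 h libraries included, while the design text gives another unit and more days, and the doses and times of the labels are used here. Each line and time has 1 library, 10 in all, so there are no replicates, no untreated libraries at the later times, and the results speak for these established lines alone. Values are FPKM (fragments scaled by transcript length and library size, a unit inferred from the values), so each is a share of its library. Wherever 5 values of a line are given, they run in the order 0, 6, 12, 24 and 48 h.

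Glycolysis splits glucose into pyruvate in the cytosol, and most of its enzymes exist as isoforms encoded by separate genes. Carriers bring glucose in, hexokinase traps it as glucose 6-phosphate, and phosphofructokinase-1 commits it to the pathway. The PFKFB enzymes make and break fructose 2,6-bisphosphate, the strongest known activator of phosphofructokinase-1. Pyruvate is then reduced to lactate by lactate dehydrogenase and exported by monocarboxylate carriers, or it enters the mitochondria, where the pyruvate dehydrogenase kinases inhibit the complex that turns it into acetyl-CoA. Glioblastoma cells are known for converting much of their glucose to lactate even in the presence of oxygen, and many of these genes are known targets of the hypoxia-inducible factor HIF-1.

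Summed FPKM per library ran between 405316 and 487281, and relative depth, judged from how much FPKM a single read adds in lowly expressed genes, between 100 and 116.8% of the DBTRG-05MG 0 h library. The non-coding RNA BCYRN1 took between 0.578 and 3.37% of the total in DBTRG-05MG libraries and between 7.385 and 13.3% in U87 libraries. Its highest share was at 12 h in U87, and its part in the results below was not tested. Genes listed at 0 numbered between 3047 and 3555 in DBTRG-05MG libraries and between 4446 and 5106 in U87 libraries. The U87 24 h library had the most. The astrocyte marker GFAP was at most 0.51 FPKM in any library, and SOX2, a neural stem cell factor, stood between 23.0 and 36.6 FPKM in DBTRG-05MG and was listed at 0 in all U87 libraries. The cAMP-induced kinase gene SIK1 was at 92.0 FPKM at 6 h against 18.5 FPKM at 0 h in DBTRG-05MG, and at 8.23 FPKM at 6 h against 3.65 FPKM at 0 h in U87. In the GENCODE 29 annotation 12 of the 32 genes have pseudogenes of their name, 105 in all and 62 of them of GAPDH. Of these pseudogenes 3 are in the table, 2 of TPI1 and 1 of PGAM1, and 0 of GAPDH. Reads of near-identical copies may have been split between gene and pseudogene for TPI1 and PGAM1. The effect of copies outside the table was not tested. A further limit is that 9 of the genes overlap a tested gene on the opposite strand, and the strand setting of the counting is not given in the sources used here.

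The 32 genes together took 3.25, 2.775, 2.49, 2.43 and 2.39% of summed FPKM in DBTRG-05MG and 2.535, 2.40, 3.11, 3.85 and 2.84% in U87. The share was lower at every later time than at 0 h in DBTRG-05MG, and in U87 it was highest at 24 h. GAPDH alone made up a large part of it, with 1.32, 1.17, 1.01, 1.04 and 0.959% in DBTRG-05MG, against 1.11, 0.986, 1.31, 1.76 and 1.53% in U87. Averaged over the 5 times, GAPDH (4538 ± 596.5 FPKM, SD over times) and PKM (2209 ± 408 FPKM) stood at the top in DBTRG-05MG with no overlap between neighbouring genes. LDHA (847 ± 141.5 FPKM), ALDOA (739.8 ± 147 FPKM), ENO1 (591 ± 98.1 FPKM) and TPI1 (466 ± 69.6 FPKM) followed, each overlapping the next in its range. In U87 the order was again GAPDH (6377 ± 1437 FPKM), PKM (2069 ± 817 FPKM), LDHA (1095 ± 289.5 FPKM), ALDOA (1006 ± 143 FPKM), ENO1 (972.5 ± 139.7 FPKM) and TPI1 (661 ± 76.7 FPKM), and from PKM to ENO1 the ranges of neighbours overlapped. PDK3 and PFKFB2 were at the foot of the order in DBTRG-05MG (1.99 ± 0.275 and 0.9699 ± 0.246 FPKM), and in U87 PFKFB2 was lowest (1.30 ± 0.582 FPKM).

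The first question the time course poses is how each gene stood relative to its own 0 h library. In DBTRG-05MG most of the 32 were below 0 h throughout, with 29, 23, 21 and 22 of them below at 6, 12, 24 and 48 h and 3, 9, 11 and 10 above. Among all 12352 genes, 60.8, 49.6, 45.1 and 47.7% were below 0 h at those times. The median of the 32 on the log2(FPKM + 1) scale was -0.26, -0.31, -0.45 and -0.37, beside -0.07, 0.00, 0.05 and 0.02 for all genes. In bulk RNA a lower level in every cell and fewer cells that carry the RNA cannot be told apart.

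U87 followed another course. There 17, 27, 23 and 15 of the 32 were above 0 h at 6, 12, 24 and 48 h and 15, 5, 9 and 17 below, while 47.1, 43.8, 35.1 and 34.6% of all genes were above. The median of the 32 was 0.04, 0.42, 0.26 and -0.01, beside -0.01, -0.04, -0.15 and -0.15 for all genes. Scaling the libraries to a common median shifts every log2 change by 0.25 at 24 h and by 0.28 at 48 h in U87, and by 0.11 at 6 h in DBTRG-05MG. Relative to that shift, 27 of the 32 were above 0 h at 24 h in U87 (median 0.50) and 26 at 48 h (median 0.25), and 25 were below 0 h at 6 h in DBTRG-05MG (median -0.17). Genes lower than 0 h in DBTRG-05MG and higher in U87 numbered 15, 21, 18 and 9 of 32 at 6, 12, 24 and 48 h. The same pairing of directions was found in 24.6, 21, 19.8 and 10.9% of all genes.

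Changes of at least 2-fold on the log2(FPKM + 1) scale were few, and they are sizes with no test behind them. In DBTRG-05MG none of the 32 was 2-fold higher at 6 or 12 h, where 1.17 and 2.47% of all genes were, and PDK4 at 24 h and SLC2A3 and PDK4 at 48 h were, where 3.18 and 4.57% were. The 2-fold lower genes in DBTRG-05MG were PFKFB4 at 6 h (0.81% of all genes), ALDOC and PDK1 at 12 and 24 h (1.61 and 1.6%), and SLC2A1, ALDOC and PDK1 at 48 h (5.16%). Scaling to a common median left 2 of the 3 at 48 h. In U87 the 2-fold higher genes were SLC2A1, PFKFB3 and PDK4 at 6 h, SLC2A1, PFKFB3, PFKFB4 and PDK1 at 12 h, SLC2A1 and PDK2 at 24 h, and SLC2A3 and PDK4 at 48 h. Among all genes 2.73, 2.61, 2.15 and 2.14% were that much higher at these times. LDHB at 24 h was the 1 gene of the 32 that was 2-fold lower in U87, where 2.43, 2.67, 4.5 and 4.32% of all genes were so at the 4 times. Under the common median LDHB was no longer 2-fold lower, and 5 and 3 of the 32 were 2-fold higher at 24 and 48 h.

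**Figure D1:**
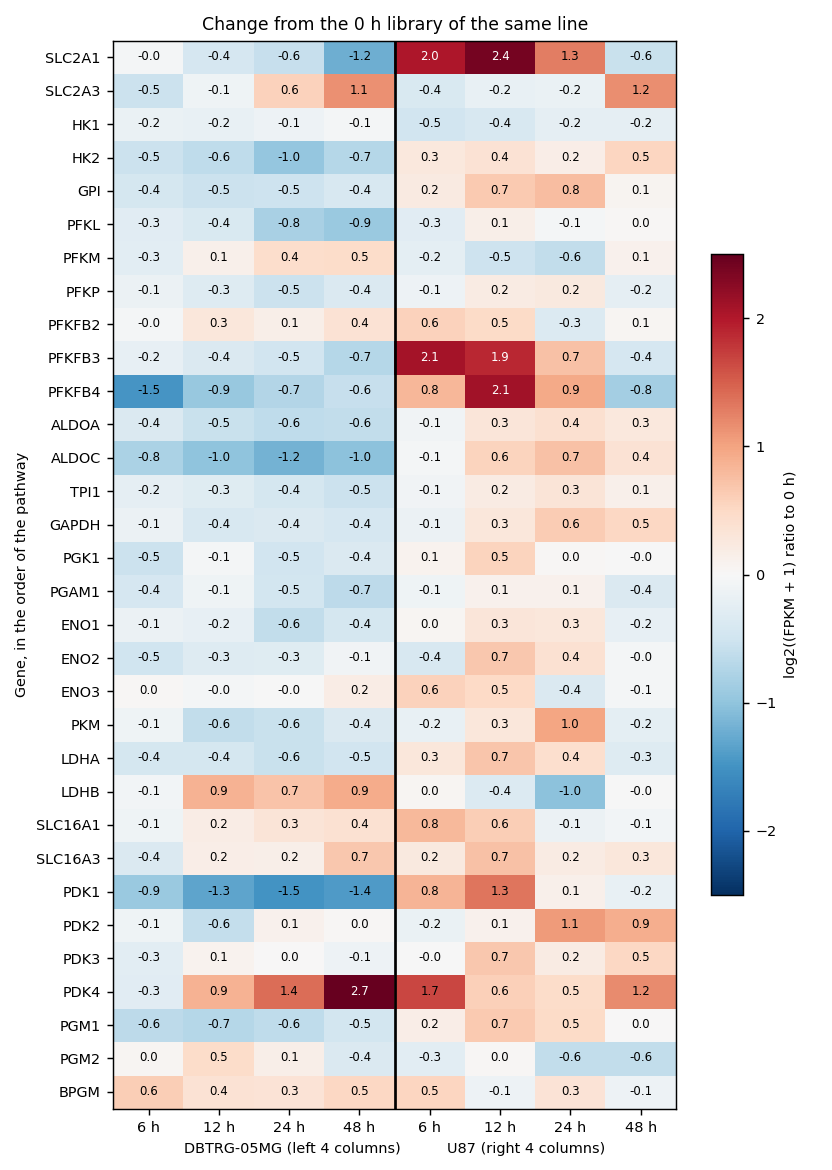
Change of each of the 32 genes from the 0 h library of its own line, as log2((FPKM + 1) ratio), with 1 library per column; red is above 0 h and blue is below. The DBTRG-05MG columns on the left are mostly blue (29 of 32 genes below 0 h at 6 h), and the U87 column at 12 h is mostly red (27 of 32 above), led by SLC2A1 at 2.39.

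Glucose entry was carried by SLC2A1 (GLUT1), the widely expressed basal glucose carrier, and SLC2A3 (GLUT3), the high-affinity carrier known from neurons. SLC2A1 lies on chromosome 1 (42925353 to 42958868, GRCh38.p14) and SLC2A3 on chromosome 12 (7919230 to 7936187). SLC2A1 stood at 133, 129, 99.3, 88.3 and 56.7 FPKM in DBTRG-05MG and at 12.4, 53.5, 69.2, 31.6 and 8.16 FPKM in U87. In DBTRG-05MG it was highest at 0 h (at 6 h after scaling to a common median) and lowest at 48 h, and in U87 it peaked at 12 h, 5.57-fold over 0 h, and was below 0 h at 48 h. The U87 peak of 69.2 FPKM lay above only the last of the DBTRG-05MG values.

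SLC2A3 took an opposite course in DBTRG-05MG and moved late in U87. It stood at 20.4, 13.8, 18.9, 31.1 and 46.3 FPKM in DBTRG-05MG and at 12.2, 9.14, 10.7, 10.7 and 28.6 FPKM in U87. Both lines had their highest value at 48 h, 2.26-fold over 0 h in DBTRG-05MG and 2.34-fold in U87. The mean log2 change of the 2 lines at 48 h was 1.15 ± 0.26 (SE from the fit, whose spread is taken over all 10 libraries). It had the smallest adjusted p of the 32 genes at that time, and it did not pass (limma adjusted p = 0.152). SLC2A1 made up 86.7, 90.4, 84.0, 73.9 and 55.1% of the FPKM of the pair in DBTRG-05MG and 50.4, 85.4, 86.6, 74.6 and 22.2% in U87. At 48 h SLC2A3 was thus at its largest share of the pair in either line.

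Of the hexokinases, HK1 is the housekeeping form and HK2 the inducible form bound to mitochondria in many tumours. HK1 was the main one in each library, at 76.9, 68.0, 67.7, 70.4 and 73.9 FPKM in DBTRG-05MG and 154, 110.1, 116, 132 and 132 FPKM in U87. The ratio of its highest to its lowest value was 1.137 in DBTRG-05MG and 1.397 in U87. HK2, on chromosome 2 (74834127 to 74893359), stood at 8.99, 5.88, 5.41, 4.12 and 5.11 FPKM in DBTRG-05MG and 15.8, 19.1, 20.7, 17.8 and 23.5 FPKM in U87. Every later library was below 0 h in DBTRG-05MG and above 0 h in U87. The ranges of the lines did not touch, and the highest DBTRG-05MG value of HK2 was below the lowest U87 value. Its share of the hexokinase FPKM was 10.5, 8.0, 7.4, 5.5 and 6.5% in DBTRG-05MG, against 9.3, 14.8, 15.1, 11.9 and 15.2% in U87.

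GPI, which turns glucose 6-phosphate into fructose 6-phosphate, showed the same split of directions. It stood at 234, 173, 161, 163 and 177 FPKM in DBTRG-05MG and at 167, 196, 263, 287 and 175 FPKM in U87. DBTRG-05MG had its highest level at 0 h, while U87 peaked at 24 h, 1.72-fold over 0 h, and was close to its 0 h level at 48 h. The ranges of the lines overlapped.

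Phosphofructokinase-1 is a tetramer built from liver-type (PFKL), muscle-type (PFKM) and platelet-type (PFKP) subunits. PFKP was the most abundant, with 125, 113, 100.5, 85.8 and 96.9 FPKM in DBTRG-05MG and 175, 161, 204, 207 and 149.8 FPKM in U87. It made up 60.5 ± 1.8% of the 3 genes in DBTRG-05MG and 73.0 ± 3.8% in U87 (mean and SD over 5 times). PFKL stood at 67.7, 55.2, 52.1, 38.1 and 35.3 FPKM in DBTRG-05MG, each value below the one before, and at 47.3, 38.7, 52.6, 45.5 and 48.1 FPKM in U87. PFKM stood at 16.3, 13.4, 17.8, 22.3 and 22.6 FPKM in DBTRG-05MG and 22.5, 18.8, 15.4, 14.3 and 24.3 FPKM in U87, with its 2 highest DBTRG-05MG values at 24 and 48 h. The PFKL share of the step was 32.3% at 0 h and 22.8% at 48 h in DBTRG-05MG, while the PFKM share was 7.8% at 0 h and 14.6% at 48 h. In U87 the PFKL share stayed between 17.1 and 21.6%.

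The main PFKFB genes had their highest values at 0 h in DBTRG-05MG and at 6 or 12 h in U87. PFKFB3, whose enzyme has a strong bias toward making fructose 2,6-bisphosphate, lies on chromosome 10 (6144921 to 6326637) and stood at 32.4, 27.9, 25.0, 23.1 and 19.3 FPKM in DBTRG-05MG and 9.38, 42.7, 37.5, 16.2 and 6.75 FPKM in U87. Its DBTRG-05MG values were lower at each later time, and in U87 it was 4.56-fold over 0 h at 6 h, 4.00-fold at 12 h and below 0 h at 48 h. PFKFB4, on chromosome 3 (48517684 to 48563136), stood at 33.2, 11.4, 16.7, 19.6 and 22.0 FPKM in DBTRG-05MG and 14.1, 26.0, 64.1, 28.2 and 7.46 FPKM in U87. It was lowest at 6 h in DBTRG-05MG, 0.343 of its 0 h level, and its later values were higher but all below 0 h. In U87 it peaked at 12 h, 4.53-fold over 0 h, and its 48 h value was the lowest of the line.

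PFKFB2, the heart form, was near the filter limit, at 0.76, 0.71, 1.15, 0.94 and 1.28 FPKM in DBTRG-05MG and 1.02, 2.00, 1.79, 0.6 and 1.09 FPKM in U87. Summed over the 3 genes, the step had 66.4, 40.0, 42.9, 43.6 and 42.6 FPKM in DBTRG-05MG and 24.5, 70.8, 103.4, 45.1 and 15.3 FPKM in U87. Within the sum the leading gene changed with time, since PFKFB3 held 69.8% at 6 h in DBTRG-05MG and 60.4% at 6 h in U87, and PFKFB4 held 51.7% at 48 h in DBTRG-05MG and 62.0% at 12 h in U87.

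**Figure D2:**
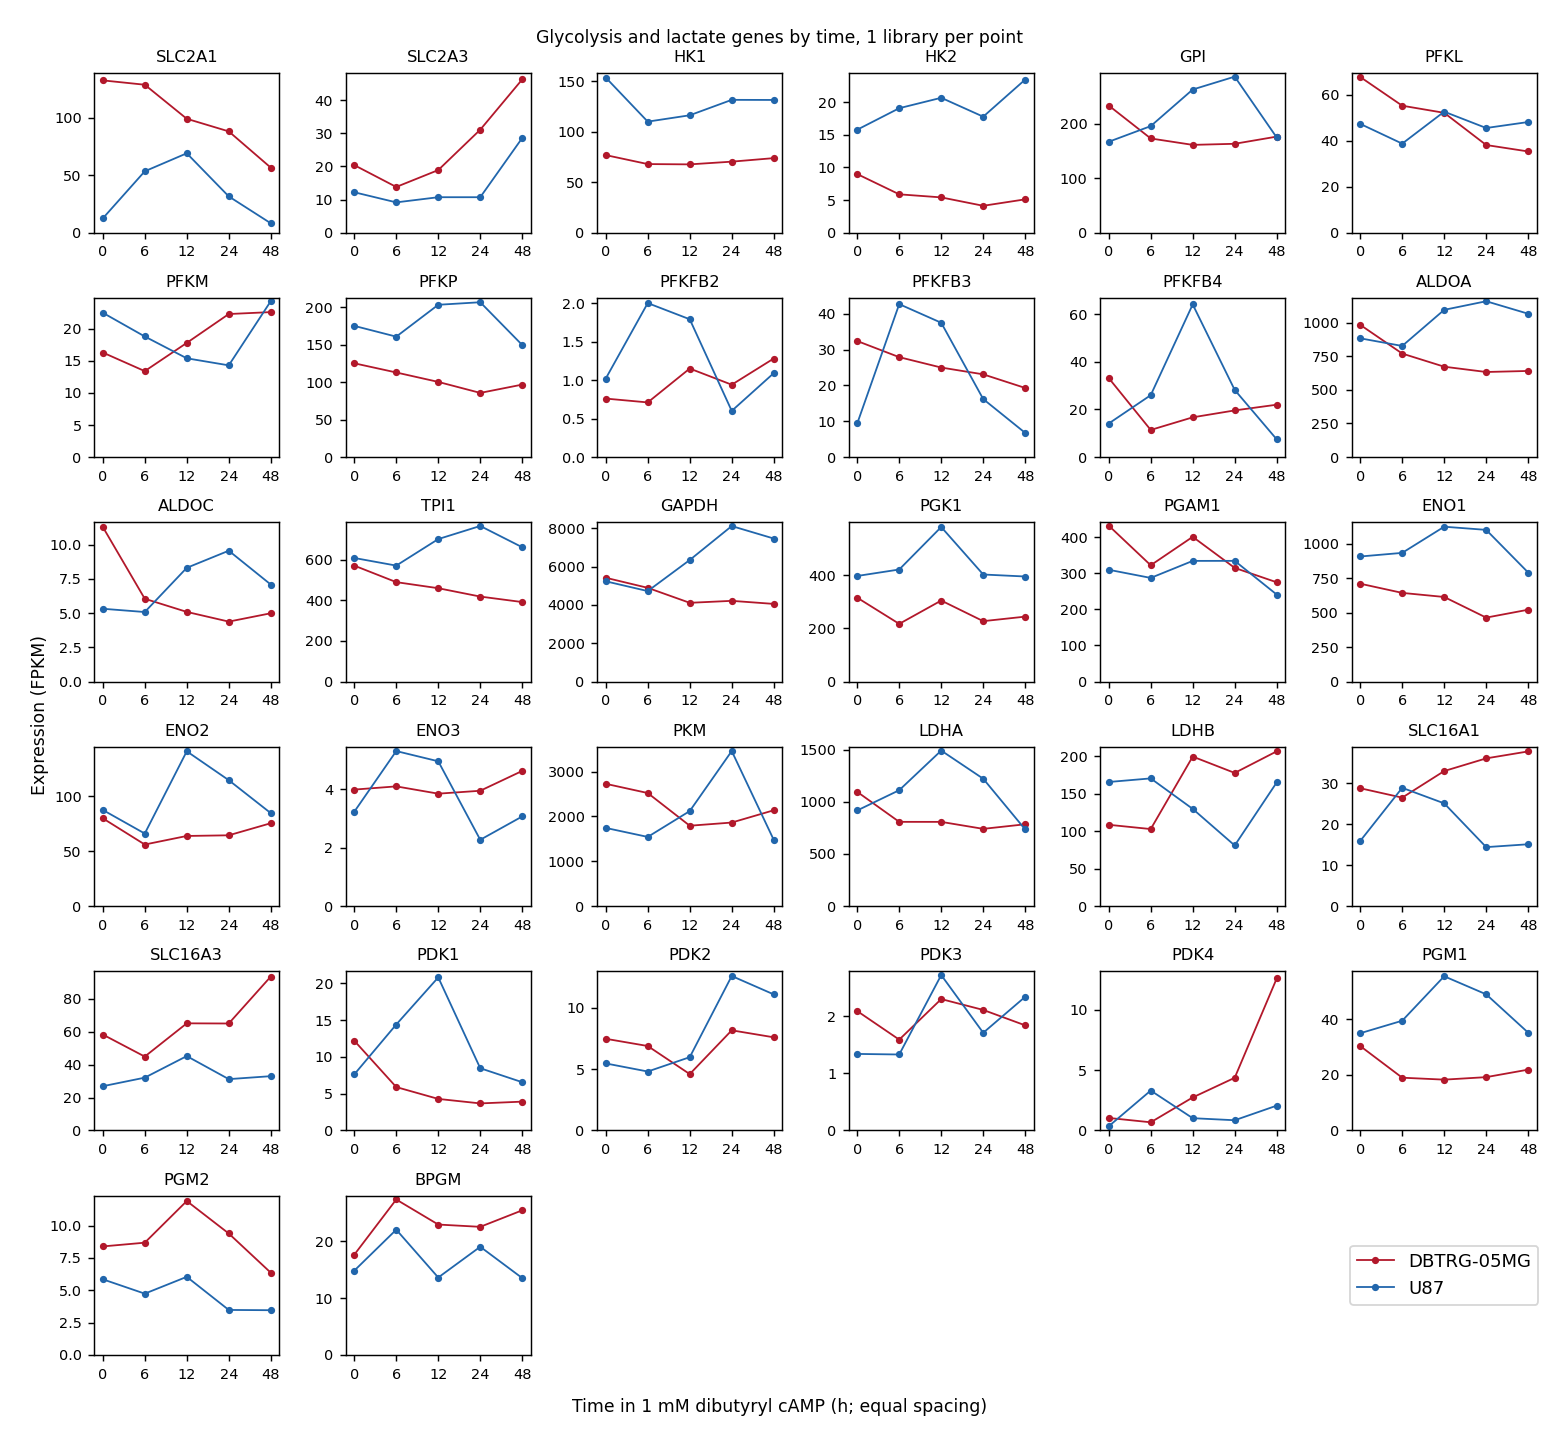
FPKM of each of the 32 genes at the 5 times (0, 6, 12, 24 and 48 h, drawn at equal spacing), 1 library per point, with DBTRG-05MG in red and U87 in blue and each panel on its own axis from 0. SLC2A1, PFKFB3, PFKFB4, PDK1 and LDHA have their highest DBTRG-05MG value at 0 h and their highest U87 value at 6 or 12 h.

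Promoter windows from RefSeq on GRCh38.p14, which run over 250 bases before and 50 after a gene start, are shown for SLC2A1, PFKFB3 and PFKFB4, the genes with the sharpest hump in U87, and for LDHA. Capitals mark the hypoxia element cores ACGTG and GCGTG on either strand, and in LDHA also the cAMP response element TGACGTCA.
SLC2A1, chr1:42958819-42959118, minus strand: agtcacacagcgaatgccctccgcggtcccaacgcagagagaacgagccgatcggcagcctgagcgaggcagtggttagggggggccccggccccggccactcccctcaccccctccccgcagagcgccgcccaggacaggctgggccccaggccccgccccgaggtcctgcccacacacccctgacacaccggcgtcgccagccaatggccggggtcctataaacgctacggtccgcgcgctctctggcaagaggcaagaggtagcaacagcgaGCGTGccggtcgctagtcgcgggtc
PFKFB3, chr10:6144671-6144970, plus strand: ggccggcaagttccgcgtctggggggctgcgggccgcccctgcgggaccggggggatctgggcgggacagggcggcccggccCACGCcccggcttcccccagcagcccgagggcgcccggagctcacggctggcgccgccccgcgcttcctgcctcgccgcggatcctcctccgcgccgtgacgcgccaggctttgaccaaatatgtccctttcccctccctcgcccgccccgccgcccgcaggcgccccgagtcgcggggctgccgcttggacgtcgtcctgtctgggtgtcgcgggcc
PFKFB3, chr10:6202682-6202981, plus strand: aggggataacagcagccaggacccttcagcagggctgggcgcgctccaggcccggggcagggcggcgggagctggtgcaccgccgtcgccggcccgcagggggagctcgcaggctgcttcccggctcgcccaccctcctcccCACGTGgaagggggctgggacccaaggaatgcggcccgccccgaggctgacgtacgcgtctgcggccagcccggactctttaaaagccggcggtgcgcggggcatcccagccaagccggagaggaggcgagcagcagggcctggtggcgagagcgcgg
PFKFB4, chr3:48556754-48557053, minus strand: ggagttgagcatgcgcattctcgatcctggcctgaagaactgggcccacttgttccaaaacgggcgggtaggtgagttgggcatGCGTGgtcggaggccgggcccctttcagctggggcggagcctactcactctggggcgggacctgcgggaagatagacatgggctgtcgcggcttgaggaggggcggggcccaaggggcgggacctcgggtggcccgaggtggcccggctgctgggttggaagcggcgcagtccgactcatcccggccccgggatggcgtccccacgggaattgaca
LDHA, chr11:18394313-18394612, plus strand: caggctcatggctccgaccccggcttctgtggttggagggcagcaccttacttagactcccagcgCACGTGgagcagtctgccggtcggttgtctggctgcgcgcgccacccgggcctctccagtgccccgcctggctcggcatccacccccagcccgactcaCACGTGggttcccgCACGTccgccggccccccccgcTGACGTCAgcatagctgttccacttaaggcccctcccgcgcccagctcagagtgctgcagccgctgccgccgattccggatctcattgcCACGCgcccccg

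The SLC2A1 window holds 1 core, after the start, the first PFKFB3 window and the PFKFB4 window hold 1 core each, and the second PFKFB3 window holds 2, which share the palindrome CACGTG. The LDHA window shown holds 6 cores and the single TGACGTCA among the windows of the 32 genes. It was picked for that element. The other LDHA window, chr11:18396101-18396400, is not shown and holds 1 core and no TGACGTCA. Windows were found for 29 of the 32 genes, 60 in all, some of a gene overlapping each other. ACGTG was in 23 of them (38.3%, against 21.4% of 35116 windows of all genes), GCGTG in 24 (40% against 36.5%) and either core in 37 (61.7% against 48.4%). TGACGTCA was in 1 (1.67% against 1.85%), its half-site TGACG in 14 (23.3% against 24.6%) and CACGTG, which contains ACGTG on both strands, in 8 (13.3% against 7.26%). These are matches of letters on both strands in short windows and say nothing of binding. SLC2A3, PFKFB2 and SLC16A1 are named only.

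Aldolase, which splits fructose 1,6-bisphosphate, was almost wholly ALDOA (99.2 ± 0.2% of the pair in DBTRG-05MG and 99.3 ± 0.1% in U87). ALDOA stood at 984, 769.9, 672, 633 and 641 FPKM in DBTRG-05MG and 883, 826, 1095, 1159 and 1066 FPKM in U87. ALDOC, the brain form, was minor but varied more in DBTRG-05MG, at 11.3, 6.05, 5.09, 4.38 and 4.99 FPKM, and stood at 5.32, 5.08, 8.31, 9.56 and 7.09 FPKM in U87. At 24 h ALDOC was at 0.388 of its 0 h level in DBTRG-05MG and 1.80-fold over 0 h in U87. TPI1, which interconverts the triose phosphates, followed ALDOA, at 570.4, 489, 459, 418 and 391 FPKM in DBTRG-05MG, lower at each later time, and 608, 570.4, 701, 765 and 661 FPKM in U87.

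GAPDH, which oxidises glyceraldehyde 3-phosphate, had the highest level of the 32 in every library, at 5419, 4893, 4111, 4214 and 4054 FPKM in DBTRG-05MG and 5234, 4723, 6346, 8118 and 7467 FPKM in U87. All 4 later DBTRG-05MG values were below 0 h, and the U87 values at 12, 24 and 48 h were above 0 h, with 1.55-fold at 24 h. The gene is often used as a constant reference, and here its highest and lowest libraries were 8118 FPKM in U87 at 24 h and 4054 FPKM in DBTRG-05MG at 48 h. PGK1, the first enzyme of the pathway to yield ATP, stood at 315, 217, 304, 227 and 244 FPKM in DBTRG-05MG and 397, 421, 580.5, 402 and 395 FPKM in U87, where 12 h was the highest. PGAM1, which moves the phosphate of 3-phosphoglycerate, stood at 432, 322, 401, 315 and 275 FPKM in DBTRG-05MG and 309.9, 287, 334, 335 and 241 FPKM in U87. BPGM makes 2,3-bisphosphoglycerate in a side branch. It was the gene of this stretch that was above 0 h at all later times in DBTRG-05MG, at 17.6, 27.3, 22.9, 22.5 and 25.4 FPKM, and stood at 14.8, 22.0, 13.6, 19.0 and 13.5 FPKM in U87.

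Enolase consisted mainly of ENO1, the ubiquitous form (89.0 ± 2.0% of the 3 genes in DBTRG-05MG and 90.6 ± 1.6% in U87). ENO1 stood at 711, 644, 614, 465 and 522 FPKM in DBTRG-05MG and 909, 935, 1125, 1102 and 792 FPKM in U87, and every DBTRG-05MG value was below every U87 value. ENO2, the neuronal form, stood at 79.9, 56.0, 63.8, 64.4 and 75.4 FPKM in DBTRG-05MG and 87.5, 66.0, 141, 115 and 84.6 FPKM in U87, with its lowest value at 6 h in either line. ENO3, the muscle form, stayed between 3.85 and 4.63 FPKM in DBTRG-05MG and between 2.27 and 5.31 FPKM in U87. PKM, the pyruvate kinase of tumours, stood at 2729, 2523, 1793, 1864 and 2138 FPKM in DBTRG-05MG and 1744, 1543, 2120, 3460 and 1478 FPKM in U87. Its U87 value at 24 h was 1.98-fold over 0 h and the highest of its 10 values, and as deposited its U87 value at 48 h was the lowest of the 10. The table gives 1 value per gene, so the splice forms of PKM are not separated here.

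Lactate dehydrogenase is built from LDHA subunits, which favour lactate production, and LDHB subunits, which favour its oxidation. LDHA, on chromosome 11 (18394563 to 18408425), stood at 1095, 807, 807, 740.2 and 784 FPKM in DBTRG-05MG and 917, 1111, 1491, 1221 and 734 FPKM in U87. The 4 later DBTRG-05MG values lay close together below 0 h, and U87 peaked at 12 h, 1.63-fold over 0 h. LDHB stood at 108, 103, 199, 178 and 206 FPKM in DBTRG-05MG and 166, 170.3, 129.6, 80.8 and 165 FPKM in U87. In DBTRG-05MG the LDHB values fall into a lower pair at 0 and 6 h and a higher group at 12, 24 and 48 h, and in U87 the lowest value was at 24 h, 0.488 of 0 h. The share of LDHA in the pair was 91.0, 88.7, 80.2, 80.7 and 79.2% in DBTRG-05MG, against 84.7, 86.7, 92.0, 93.8 and 81.7% in U87. The share was lowest at 48 h in both lines.

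Lactate leaves through SLC16A1 (MCT1), which carries it in either direction, and SLC16A3 (MCT4), the low-affinity exporter of glycolytic cells. SLC16A3 stood at 58.3, 44.9, 65.1, 65.0 and 93.5 FPKM in DBTRG-05MG, highest at 48 h, and at 26.9, 32.1, 45.2, 31.2 and 33.0 FPKM in U87, highest at 12 h. SLC16A1 stood at 28.8, 26.5, 33.0, 36.1 and 37.8 FPKM in DBTRG-05MG, also highest at 48 h, and at 15.9, 28.9, 25.1, 14.4 and 15.1 FPKM in U87, highest at 6 h. SLC16A3 held 66.3 ± 3.2% of the pair in DBTRG-05MG and 63.4 ± 6.5% in U87. The sum of the pair was 131.2 FPKM at 48 h against 87.1 FPKM at 0 h in DBTRG-05MG, and 70.3 FPKM at 12 h against 42.8 FPKM at 0 h in U87.

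The pyruvate dehydrogenase kinases inhibit the pyruvate dehydrogenase complex, and PDK1 is a known HIF-1 target while PDK4 is known to be induced on fasting in muscle and liver. PDK1, on chromosome 2 (172555373 to 172724312), stood at 12.2, 5.90, 4.29, 3.68 and 3.92 FPKM in DBTRG-05MG and 7.62, 14.4, 20.8, 8.46 and 6.56 FPKM in U87. All 4 later libraries were below 0 h in DBTRG-05MG, with 0.302 of 0 h at 24 h, and U87 peaked at 12 h, 2.73-fold over 0 h. PDK4, on chromosome 7 (95583499 to 95596516), stood at 1.04, 0.68, 2.74, 4.37 and 12.6 FPKM in DBTRG-05MG and 0.35, 3.31, 1.02, 0.85 and 2.06 FPKM in U87. Its DBTRG-05MG value at 48 h was 12.2-fold over 0 h, the largest ratio among the 32 genes and times, and rests on a 0 h level near 1 FPKM. In U87 its highest value was at 6 h and the second highest at 48 h, over a 0 h level of 0.347 FPKM.

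PDK2, a widely expressed form, stood at 7.48, 6.89, 4.60, 8.17 and 7.60 FPKM in DBTRG-05MG and 5.47, 4.81, 5.98, 12.6 and 11.1 FPKM in U87, where 24 and 48 h were the highest. PDK3 stayed between 1.59 and 2.30 FPKM in DBTRG-05MG and between 1.33 and 2.72 FPKM in U87. The make-up of the step differed by line and time. PDK1 held 53.5, 39.2, 30.8, 20.1 and 15.1% of it in DBTRG-05MG and 51.6, 60.4, 68.1, 35.8 and 29.8% in U87. PDK4 held 4.5, 4.5, 19.7, 23.9 and 48.5% in DBTRG-05MG, against 2.3, 13.9, 3.4, 3.6 and 9.3% in U87. At 48 h the largest share was thus that of PDK4 in DBTRG-05MG and of PDK2 in U87 (50.3%).

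**Figure D3:**
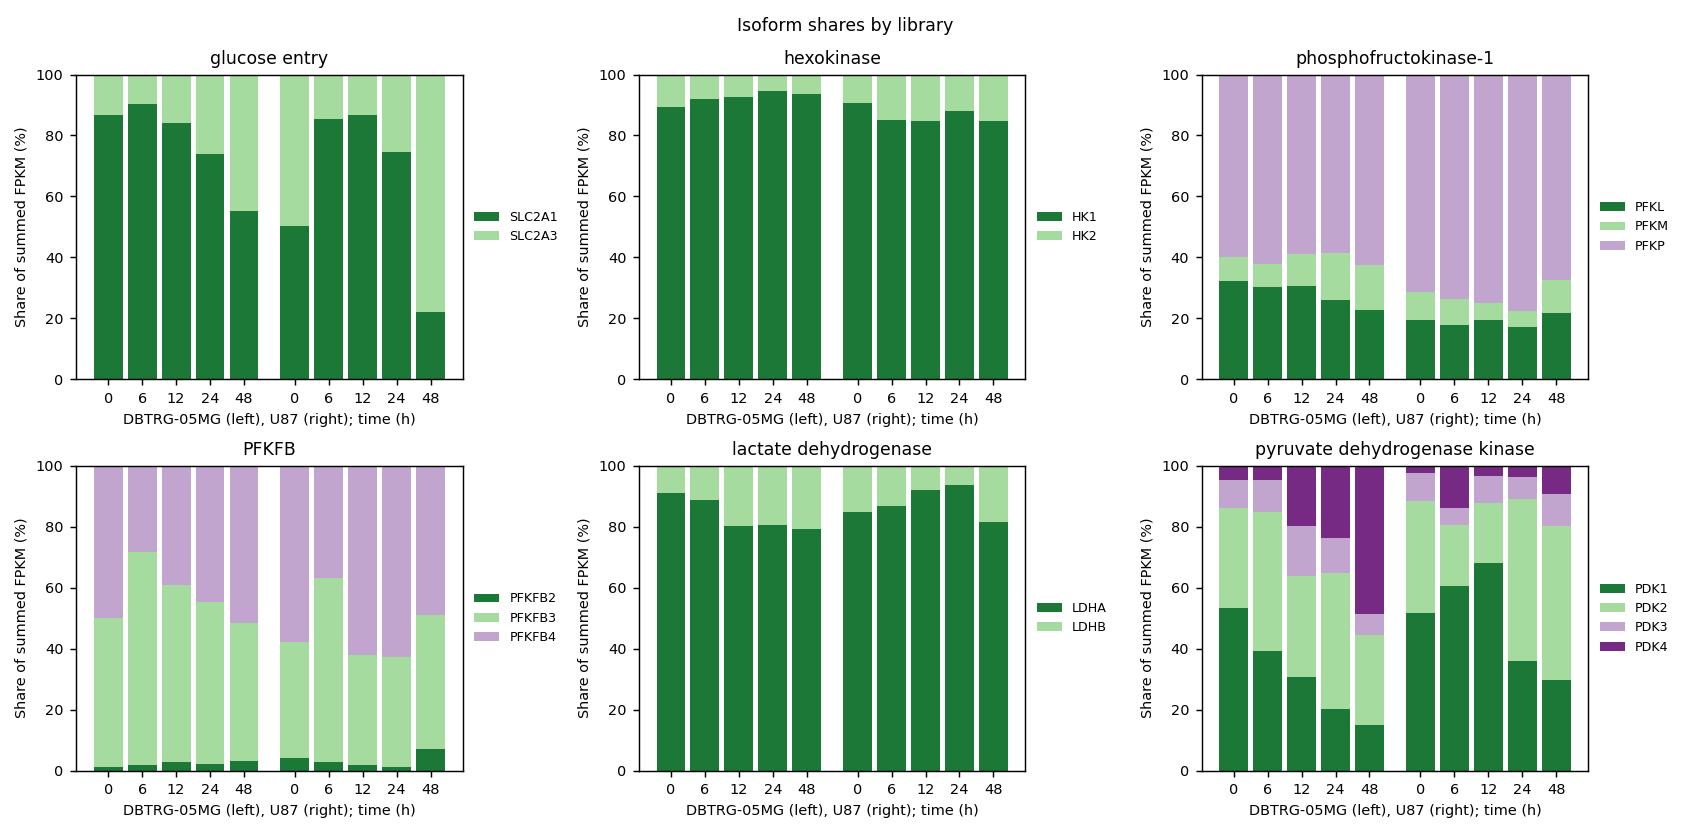
Share of each gene in the summed FPKM of its step, in percent, for 6 steps with several genes; each bar is 1 library, DBTRG-05MG on the left and U87 on the right of each panel. SLC2A1 makes up 22.2% of the glucose carriers in U87 at 48 h, and PDK4 takes 48.5% of the pyruvate dehydrogenase kinases in DBTRG-05MG at 48 h.

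Phosphoglucomutase links glucose 6-phosphate with glycogen. PGM1, the main form, stood at 30.4, 19.0, 18.3, 19.2 and 21.9 FPKM in DBTRG-05MG and 35.0, 39.5, 55.5, 49.0 and 35.2 FPKM in U87. All 4 later values were below 0 h in DBTRG-05MG and above 0 h in U87, although at 48 h in U87 the excess was small (1.01-fold). PGM2, which also acts on pentose phosphates, stood at 8.39, 8.68, 11.9, 9.39 and 6.36 FPKM in DBTRG-05MG and 5.85, 4.74, 6.04, 3.48 and 3.46 FPKM in U87. It was the 1 gene of the 32 whose DBTRG-05MG values were all above its U87 values.

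Tests of a change common to the lines used limma on log2(FPKM + 1) with time as a factor and the line as a block, and adjusted p-values (Benjamini-Hochberg) over all 12352 genes at a threshold of 0.05. None of the 32 genes passed at 6, 12, 24 or 48 h, where 0.0081, 0.0081, 0.0081 and 0% of all genes did. At an unadjusted p under 0.05 there were 1, 0, 0 and 2 of the 32 and 656, 552, 433 and 1512 of all genes. The spread in this test is the disagreement of the lines over all times, which the opposite courses of many of these genes widen.

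A straight trend over the rank of time was tested within each line. In DBTRG-05MG none of the 32 passed, beside 0.648% of all genes with a rising and 0.47% with a falling trend. At an unadjusted p under 0.05 there were 10 of the 32, SLC2A3, LDHB, SLC16A3 and PDK4 upward and HK2, PFKL, ALDOA, ALDOC, TPI1 and PDK1 downward, and 2210 of all genes. The smallest adjusted p belonged to PDK4, with a slope of 0.72 ± 0.16 log2 units per step (limma adjusted p = 0.0597), and to PFKL, with -0.24 ± 0.06 (limma adjusted p = 0.086). PDK4 passed without the U87 library of 0, 6 or 24 h (limma adjusted p of 0.0418, 0.0326 and 0.0472) and with time in hours (limma adjusted p = 0.0305). Leaving out a U87 library changes the spread in the fit and not the DBTRG-05MG slope, which stayed at 0.715. PDK4 did not pass in any fit without a DBTRG-05MG library. In U87 none of the 32 and 0% of all genes passed, with 2 (GAPDH and PDK2) and 1545 at an unadjusted p under 0.05. Without the U87 0 h library, SLC2A1 and PFKFB3 fell with time in U87, by 0.88 and 0.865 log2 units per step (limma adjusted p of 0.038 and 0.0144). The difference in trend between DBTRG-05MG and U87 passed in none of the 32 and in 0.0162% of all genes, and 8 of the 32 and 1661 of all genes had an unadjusted p under 0.05; PFKL had the smallest adjusted p of the 32 (a difference of -0.26 ± 0.08 log2 units per step, limma adjusted p = 0.283).

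A hump in the middle of the time course was tested after it had been seen in these data, as the fitted height at the middle rank over the mean of the ends. In U87 SLC2A1, PFKFB3 and PFKFB4 passed upward and none of the 32 downward, beside 0.874% of all genes upward and 0.405% downward. The hump was 2.62 ± 0.20 log2 units (SE) for SLC2A1 (limma adjusted p = 0.0107), 2.12 ± 0.31 for PFKFB3 (limma adjusted p = 0.0264) and 2.19 ± 0.39 for PFKFB4 (limma adjusted p = 0.0434). PDK1 (1.15 ± 0.29, limma adjusted p = 0.0884) and LDHA (0.78 ± 0.21, limma adjusted p = 0.107) did not pass, and neither did SLC2A3, the largest in the other direction (-0.92 ± 0.25, limma adjusted p = 0.105). The median of the 32 was 0.30, with 26 positive and 6 negative, and that of all genes was 0.00. In DBTRG-05MG none of the 32 and 0.0081% of all genes passed, with 3 and 1228 at an unadjusted p under 0.05, and the median of the 32 was -0.15.

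The calls depended on which libraries were in the fit. The hump of SLC2A1 had adjusted p-values between 0.000474 and 0.0944 over 15 alternatives and was lost without the U87 0 h library and without any 1 of the DBTRG-05MG libraries of 6, 12, 24 or 48 h. Those of PFKFB3 (0.0048 to 0.226) and PFKFB4 (0.0235 to 0.209) were lost in 8 and 10 of the alternatives, among them the ones without the U87 0 h or 12 h library and without any 1 of the 5 DBTRG-05MG libraries. Leaving out a DBTRG-05MG library changes the spread in the fit and not the height, which stayed at 2.62, 2.12 and 2.19 for SLC2A1, PFKFB3 and PFKFB4. Leaving out a U87 library gave heights of 2.20 to 3.13 for SLC2A1, 0.97 to 3.24 for PFKFB3 and 1.75 to 3.06 for PFKFB4. The lowest PFKFB3 value was the one without the U87 0 h library and the highest the one without the U87 48 h library. Without the U87 48 h library PFKFB4 was also lost, while PDK1, SLC16A1 and ENO3 passed beside SLC2A1 and PFKFB3; without the U87 24 h library PDK1 and LDHA passed beside the 3. The difference in the hump, DBTRG-05MG minus U87, passed in none of the 32 and in 0% of all genes, with 8 and 1542 at an unadjusted p under 0.05. It was -2.35 ± 0.29 for SLC2A1 (limma adjusted p = 0.114), -3.04 ± 0.56 for PFKFB4 (limma adjusted p = 0.142), -2.12 ± 0.44 for PFKFB3 (limma adjusted p = 0.169) and -1.79 ± 0.40 for PDK1 (limma adjusted p = 0.185). Without the U87 24 h library SLC2A1, PFKFB3 and PDK1 passed for this difference, and without the U87 48 h library SLC16A1 did as well. With all 10 libraries in the fit, 0 of the 32 were called for it.

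The second question is how the lines differ in level. The mean log2 difference over the 5 times, DBTRG-05MG minus U87, was tested in the fit with time and line. The labels do not say whether the 5 times of a line came from separate cultures, and the p-values measure the spread of the difference over times. In DBTRG-05MG 6 of the 32 genes were higher (35.2% of all genes were) and 9 were lower (19.7% of all genes were), and the median difference was -0.14 for the 32 and 0.18 for all genes.

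Carriers were on the higher side in DBTRG-05MG. SLC2A1 was higher by 1.84 ± 0.36 log2 units (101 FPKM in DBTRG-05MG, 35.0 FPKM in U87 on average, limma adjusted p = 0.00207), SLC16A3 by 0.92 ± 0.17 (limma adjusted p = 0.00184), SLC2A3 by 0.83 ± 0.16 (limma adjusted p = 0.0023) and SLC16A1 by 0.72 ± 0.22 (limma adjusted p = 0.0186). PGM2 (0.80 ± 0.16, limma adjusted p = 0.00211) and BPGM (0.47 ± 0.15, limma adjusted p = 0.027) were the other higher genes. All 4 glucose and lactate carriers of the list were thus among the 6, and for each of them the ranges of the lines overlapped.

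The 9 lower genes all encode enzymes, as do PGM2 and BPGM among the higher ones, and the other 17 of the 32 did not pass. HK2 was lower by 1.59 ± 0.20 log2 units in DBTRG-05MG (5.90 FPKM in DBTRG-05MG, 19.4 FPKM in U87 on average; difference -1.59, limma adjusted p = 0.000128), the smallest adjusted p of the 32. PGM1 (-0.95 ± 0.20), HK1 (-0.83 ± 0.13), PFKP (-0.78 ± 0.16), PGK1 (-0.75 ± 0.15) and ENO1 (-0.72 ± 0.18) followed, with limma adjusted p-values of 0.00337, 0.000477, 0.00294, 0.00266 and 0.00699. TPI1 (-0.51 ± 0.17, limma adjusted p = 0.0303), ENO2 (-0.50 ± 0.18, limma adjusted p = 0.0432) and PDK1 (-0.85 ± 0.32, limma adjusted p = 0.0473) were nearer the threshold. At 0 h the order of PDK1 was the reverse, with 12.2 FPKM in DBTRG-05MG against 7.62 FPKM in U87, so its call rests on the later libraries. GAPDH (-0.47 ± 0.24, limma adjusted p = 0.12), ALDOA (-0.45 ± 0.20, limma adjusted p = 0.0797) and LDHA (-0.34 ± 0.21, limma adjusted p = 0.194) did not pass.

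Of these 15 calls, 9 passed in each of 16 alternatives (SLC2A1, SLC16A3, PGM2, HK1, HK2, PFKP, PGK1, ENO1 and PGM1). SLC2A3 was lost in the fit with no time block. BPGM, SLC16A1, TPI1, ENO2 and PDK1 were lost in 6, 7, 7, 7 and 9 of the 16. Each of them was lost without the library of either line at several times. Scaling to a common median also lost BPGM (limma adjusted p = 0.317) and SLC16A1 (limma adjusted p = 0.0717). Scaling to a common upper quartile lost BPGM (limma adjusted p = 0.079), and the fit with no filter lost TPI1, ENO2 and PDK1. All 5 DBTRG-05MG values lay above all 5 U87 values for PGM2 alone (27.1% of all genes) and below them for HK1, HK2, PFKP, PGK1, ENO1 and PGM1 (13.8% of all genes), and 25 of the 32 overlapped. For 9 of the 32 genes the order of the lines at 0 h was not that of the mean over times. Among them were PDK1, which was called, and GAPDH, ALDOA and LDHA, which were not.

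**Figure D4:**
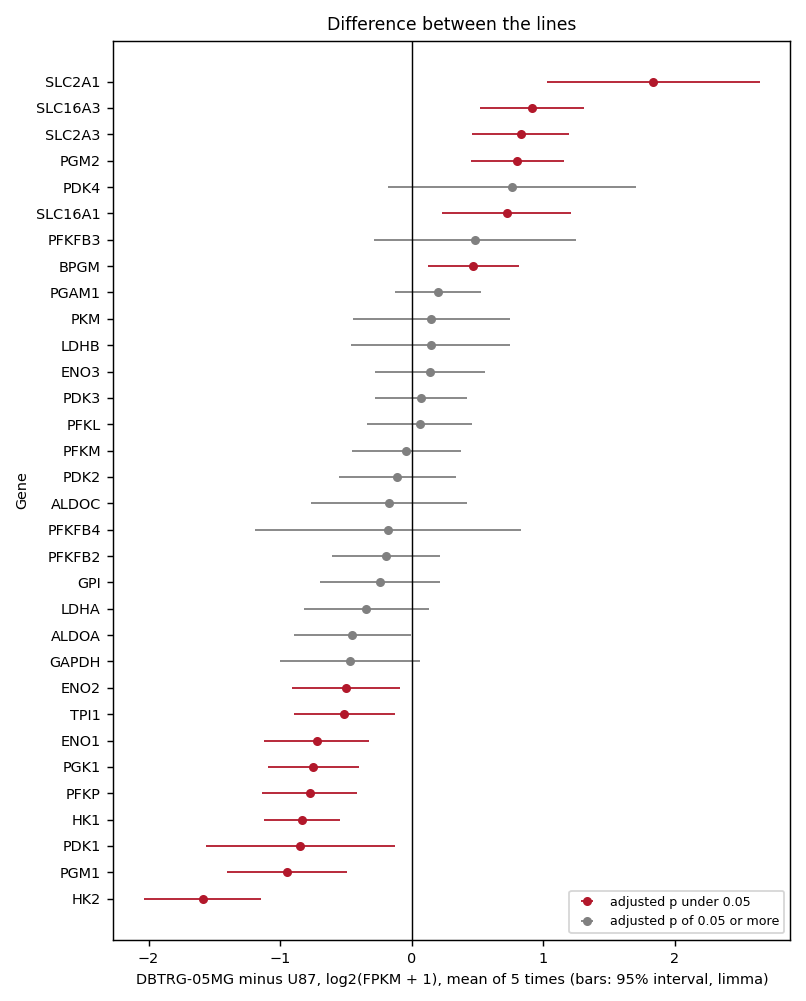
Mean log2(FPKM + 1) difference of the 32 genes over 5 times, DBTRG-05MG minus U87, with 95% intervals from limma; red marks an adjusted p under 0.05. SLC2A1 is farthest right at 1.84 and HK2 farthest left at -1.59.

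Further lists of the same metabolism, fixed for this report with earlier results known, were read beside the 32 genes. Among 15 tested hypoxia-induced genes outside glycolysis, 3, 4, 4 and 8 were above 0 h at 6, 12, 24 and 48 h in DBTRG-05MG (medians -0.69, -0.67, -0.37 and 0.37), and 12, 15, 11 and 7 in U87 (medians 0.57, 1.15, 0.74 and -0.02). VEGFA, the angiogenic growth factor, stood at 57.9, 35.5, 37.8, 91.2 and 111 FPKM in DBTRG-05MG and 116, 268, 324, 291 and 99.6 FPKM in U87. BNIP3, a mitophagy receptor, stood at 229, 93.3, 55.4, 55.9 and 85.6 FPKM in DBTRG-05MG and 66.0, 110.4, 212, 219 and 70.6 FPKM in U87. CA9, the carbonic anhydrase often used as a hypoxia marker, stood at 6.82, 2.33, 2.61, 1.04 and 1.09 FPKM in DBTRG-05MG and 30.9, 20.4, 70.0, 75.0 and 25.9 FPKM in U87. The hump in U87 passed for VEGFA (1.69 ± 0.30, limma adjusted p = 0.0393), BNIP3 (1.60 ± 0.27, limma adjusted p = 0.0365) and ANKRD37 (1.75 ± 0.27, limma adjusted p = 0.0311), that is 3 of 15 upward and 0 downward, beside 0.874% of all genes upward and 0.405% downward. DDIT4, an inhibitor of mTORC1 signalling, rose with time in DBTRG-05MG (slope 0.78 ± 0.13, limma adjusted p = 0.0236), and CA12 and P4HA2 were highest at 48 h in each line.

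Of 17 tested regulators of glycolytic genes, IL6 passed upward and TXNIP downward for the hump in U87. TXNIP, which restrains glucose uptake and is itself induced by glucose, stood at 112, 59.7, 70.9, 96.4 and 148 FPKM in DBTRG-05MG and 225, 28.3, 42.6, 50.7 and 1148 FPKM in U87 (hump in U87 -4.15 ± 0.43, limma adjusted p = 0.0138). Its lowest U87 values stood at 6 and 12 h, when SLC2A1 had its 2 highest there, and its highest at 48 h, when SLC2A1 had its lowest. In DBTRG-05MG TXNIP was also highest at 48 h, when SLC2A1 was lowest. As deposited, SLC2A1 was highest there at 0 h, when TXNIP was above its 6, 12 and 24 h values. A link between TXNIP and SLC2A1 was not tested. ARRDC4, a relative of TXNIP, was highest at 48 h in both lines (22.6 FPKM in DBTRG-05MG, 38.7 FPKM in U87). IL6, the cytokine in the series title, stood at 2.95, 19.9, 14.6, 15.2 and 9.01 FPKM in DBTRG-05MG and 13.6, 87.8, 115, 198 and 30.5 FPKM in U87 (hump in U87 2.89 ± 0.48, limma adjusted p = 0.0358). HIF1A, the inducible subunit of HIF-1, stood at 73.8, 56.9, 54.5, 87.6 and 58.1 FPKM in DBTRG-05MG and 141, 166, 144, 212 and 267 FPKM in U87, highest at 24 h in DBTRG-05MG and at 48 h in U87. Of the 17, 0 passed for a change at any time or for a trend.

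Among 12 tested further isoforms and pathway enzymes, PC alone passed in the tests of time, trend and hump, with a rising trend in DBTRG-05MG (0.41 ± 0.07 per step, limma adjusted p = 0.0327). PC, which turns pyruvate into oxaloacetate, stood at 4.17, 5.95, 6.68, 10.2 and 15.9 FPKM in DBTRG-05MG and 8.24, 11.6, 8.45, 9.85 and 13.9 FPKM in U87. PCK2, which takes oxaloacetate back toward glycolysis in mitochondria, had its highest DBTRG-05MG value at 24 h (13.3 FPKM, against 4.17 FPKM at 0 h), and HKDC1 its highest at 48 h (11.6 FPKM, against 2.66 FPKM at 0 h). LDHD, a D-lactate dehydrogenase, was highest at 48 h in either line (2.96 FPKM in DBTRG-05MG, 3.67 FPKM in U87). Among 10 tested further carriers none passed for a time, a trend or the hump; BSG, the chaperone of the lactate carriers, was highest at 48 h in both lines (943 FPKM in DBTRG-05MG, 662 FPKM in U87), and SLC16A4 (40.1 FPKM in DBTRG-05MG, 0.92 FPKM in U87 at 48 h), SLC16A6 (0.32 FPKM in DBTRG-05MG, 8.19 FPKM in U87 at 48 h) and SLC2A13 (1.66 FPKM in DBTRG-05MG, 2.60 FPKM in U87 at 48 h) were the other 3 carriers with the largest mean change at 48 h.

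Of 11 genes for pyruvate entry into mitochondria none passed for a time or a trend, and none was 2-fold away from 0 h in DBTRG-05MG. MPC1, a subunit of the mitochondrial pyruvate carrier, was 2-fold lower at 24 h in U87 (5.16 FPKM, against 11.3 FPKM at 0 h), and PDP1, the phosphatase that opposes the kinases, at 48 h (6.62 FPKM, against 15.0 FPKM at 0 h). After scaling to a common median the log2 changes were -0.80 for MPC1 and -0.83 for PDP1, and neither was 2-fold lower. DLAT and CS were lowest at 48 h in DBTRG-05MG (11.4 and 101.3 FPKM). Of 14 tested glycogen genes none passed for a time, a trend or the hump. GYS1, the glycogen synthase, stood at 58.5, 46.6, 38.0, 39.5 and 29.5 FPKM in DBTRG-05MG and 18.3, 25.7, 51.7, 69.0 and 12.0 FPKM in U87, and GBE1, the branching enzyme, at 15.5, 20.5, 34.2, 37.9 and 43.4 FPKM in DBTRG-05MG and 32.1, 46.1, 60.9, 36.9 and 30.0 FPKM in U87. The glycogen-targeting subunits PPP1R3C (12.6 FPKM at 48 h against 6.00 FPKM at 0 h in DBTRG-05MG, and 12.4 FPKM at 48 h against 7.33 FPKM at 0 h in U87) and PPP1R3B (8.24 FPKM at 48 h against 5.33 FPKM at 0 h in DBTRG-05MG) were higher at 48 h. The medians of the glycogen list lay between -0.07 and 0.19 in DBTRG-05MG and between -0.31 and -0.06 in U87.

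The medians of 8 proliferation genes were 0.10, 0.15, -0.68 and -2.07 at 6, 12, 24 and 48 h in DBTRG-05MG and -0.30, -0.91, -0.45 and -1.10 in U87, with 0 of 8 passing at any time or for a trend. All 8 were below 0 h at 48 h in both lines, as with MKI67 at 10.3 FPKM at 48 h against 79.9 FPKM at 0 h in DBTRG-05MG, and 12.3 FPKM at 48 h against 53.7 FPKM at 0 h in U87. CCNA2, BUB1B and MCM5 were at 6.00, 4.06 and 10.9 FPKM at 48 h in DBTRG-05MG, against 36.8, 23.7 and 47.2 FPKM at 0 h. The part of cell division in the levels of the 32 genes was not tested. The 7 tested genes of RNA quality and handling had medians of 0.23, 0.68, 0.50 and 1.02 at 6, 12, 24 and 48 h in DBTRG-05MG, and 0.30, 0.37, 0.02 and -0.28 in U87. In DBTRG-05MG the immediate-early genes FOS and EGR1 were at least 2-fold higher at all 4 later times, where the median of the 32 genes was below 0. FOS stood at 1.62, 5.44, 4.69, 4.75 and 4.45 FPKM in DBTRG-05MG and 0.92, 1.97, 3.32, 2.39 and 0.36 FPKM in U87. EGR1 stood at 25.4, 70.1, 60.6, 64.8 and 52.6 FPKM in DBTRG-05MG and 8.47, 9.91, 13.6, 32.5 and 5.16 FPKM in U87. Among the 7, HIST1H2BD rose with time in DBTRG-05MG (67.2 FPKM at 48 h, against 14.9 FPKM at 0 h), and HIST1H1C was highest at 48 h in both lines (53.5 FPKM in DBTRG-05MG, 24.8 FPKM in U87). The stress chaperone DNAJB1 was at 67.0 FPKM at 48 h in U87, against 139.1 FPKM at 0 h, and FOSB was highest at 6 h in either line (4.04 FPKM in DBTRG-05MG, 2.04 FPKM in U87). With no untreated libraries at the later times, handling and treatment cannot be told apart in FOS, FOSB, EGR1 and the rest of this list. The part of handling in the levels of the 32 genes was not tested.

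Between the lines these lists differed too. In DBTRG-05MG minus U87, 0 of the 15 hypoxia-induced genes were higher and 8 lower (ADM, BNIP3L, CA12, CA9, HILPDA, NDRG1, P4HA2 and VEGFA), and 6 of the 10 further carriers were higher and 1 lower. Of the regulators 6 were higher and 4 lower (ARNT, EPAS1, HIF1A and IL6), of the further isoforms 3 and 2, of the pyruvate entry genes 4 and 2, and of the glycogen genes 4 and 3. Of the RNA quality genes 5 were higher and 0 lower, and of the proliferation genes 1 was higher and 1 lower. Over all genes 35.2% were higher and 19.7% lower.

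**Figure D5:**
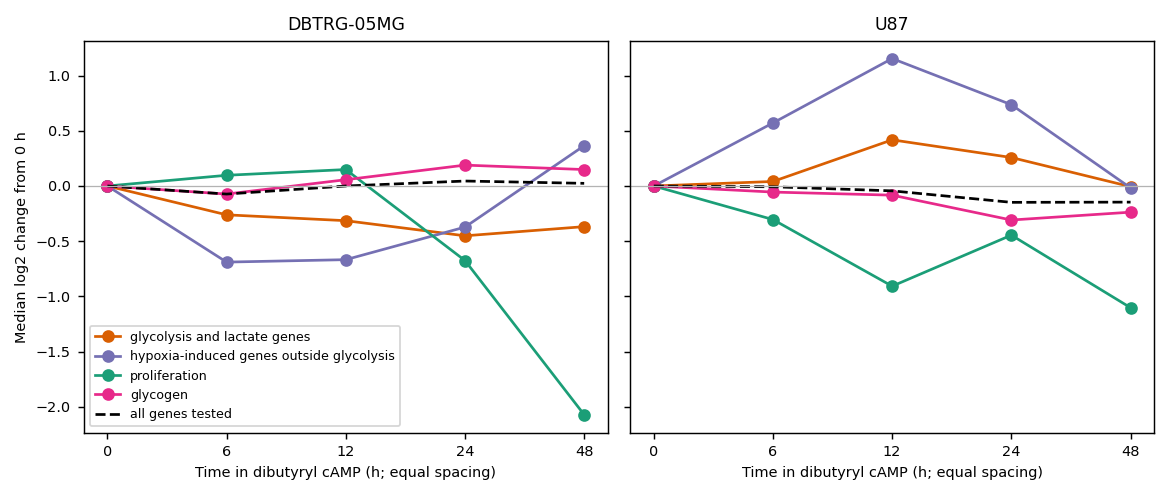
Median log2((FPKM + 1) ratio to 0 h) of 4 gene lists and of all 12352 genes at 0, 6, 12, 24 and 48 h, DBTRG-05MG on the left and U87 on the right. The 32 glycolysis and lactate genes reach 0.42 and the hypoxia-induced genes 1.15 at 12 h in U87, and both lists lie below 0 at 12 h in DBTRG-05MG.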

How the data were processed

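The deposited table holds values that were read as FPKM; the unit is inferred from the values, since the labels do not state it. Per the submitters' processing notes, the authors used RSEM, Bowtie2 and HISAT, and the genome build was hg38; versions, annotation and strand setting are not given in the sources used here. The entry 0.002, the table's lowest value, was taken as 0. Read counts were not used, so no counting interval is given.

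The 32 genes and all other gene lists were chosen with earlier results of these data known. Values were analysed as log2(FPKM + 1), a scale on which fold changes of low genes are understated, with limma 3.58.1 in R 4.3.3 (empirical Bayes with a mean-variance trend, two-sided). The fit took in the 12352 genes whose mean reached 1 FPKM, and p-values were adjusted over all of them by the Benjamini-Hochberg method. Time as a factor with line as a block leaves 4 residual degrees of freedom (median SD 0.271), a trend on the rank of time within each line 6 (median SD 0.26), and a quadratic in that rank, added after seeing the data, 4 (median SD 0.218). The line pairs the libraries of a comparison by design. Counts of 2-fold changes are sizes without a test. The rule for names took the 32 genes, up to 4 genes of each of 8 further lists with the largest mean change at 48 h, and list genes that passed; not every gene it names is reported here. Genes set beside these for their pattern were chosen after their values were seen.

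Promoter windows and gene positions came from RefSeq on GRCh38.p14, and overlaps and pseudogenes from GENCODE 29. Alternatives were the pseudocount, the filter, scaling, the mean-variance trend, the threshold, the block, the scale of time and leaving out each library. Python 3.11.15 with numpy 2.4.6, pandas 2.3.3 and matplotlib 3.10.9 served for the rest.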

Additional observations from a re-analysis of the deposited data

Results flagged for a closer look

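For HK2, GPI and PGM1 all 4 later libraries were below 0 h in DBTRG-05MG and above 0 h in U87. The mean log2 change of the 4 later libraries was -0.71 in DBTRG-05MG and 0.33 in U87 for HK2 (difference -1.05). It was -0.47 in DBTRG-05MG and 0.43 in U87 for GPI (difference -0.9), and -0.61 in DBTRG-05MG and 0.33 in U87 for PGM1 (difference -0.94). The difference was not tested in this form, and the 4 changes of a line share its 0 h library. Opposite directions of this kind, in either order of the lines, were found in 614 of the 12352 genes (4.97%) and in 3 of the 32.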

How the results depend on the processing

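With 1 library per line and time, tests within a line rest on the fit round a curve, and depth adds an unknown counting error at levels near 1 FPKM. No result at 6, 12, 24 or 48 h gained or lost a call among the 32 genes under any alternative run, the fit with no replicate block included (0 genes at each time). Between the lines that fit, which drops the pairing by time, gave 15 called genes, among which ALDOA (limma adjusted p = 0.0342) was gained and SLC2A3 (limma adjusted p = 0.0526) lost. For the trend in DBTRG-05MG the count was 2 at a threshold of 0.1 (PDK4 and PFKL) and 1 with time in hours (PDK4), and between 0 and 1 when each library was left out. For the trend in U87 it lay between 0 and 2 when each library was left out. For the middle over the ends in U87, 3 as reported, the count was 1 with no filter and between 0 and 5 when each library was left out, and for the difference of the lines in that measure between 0 and 4. The cause was not tested. Taking the 24 h library for the 48 h library turned the change of SLC2A3 in U87 to -0.17. Of 64 values for the change at 48 h, that swap moved 26 by more than the spread and reversed 1, scaling to a common median moved 13, a pseudocount of 0.1 moved 3 and scaling to a common upper quartile moved 0.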
